A study of Homo sapiens with 6 samples.

Results

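Transcripts of 10 intermediate filament genes were followed in human cardiomyocytes kept in one of 2 backbone media. The genes are the simple epithelial keratins KRT7, KRT8, KRT18 and KRT19, the keratin KRT80, the type III filament genes VIM (vimentin) and DES (desmin), SYNM (synemin), NES (nestin) and LMNA (lamins A and C). They were taken by symbol from the 38557 genes listed in each library, and all 10 were found and passed the filter on low counts. The set was selected on the KRT7 level, which differed between these same libraries, so the medium difference of KRT7 is given as a description with no test. The other 9 genes were added for their family, and their medium difference was tested. That KRT8 also differed between the media was known beforehand, so its test was not blind to these values.

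The cardiomyocytes came from WTC11, a widely used line of human induced pluripotent stem cells, labelled as wild type. RPMI plus B27 (a serum-free supplement) was used for 3 cultures and DMEM plus fatty acids for the other 3, and each medium has biological replicates numbered 1 to 3. All 6 cultures thus share the cell line, and what each medium contained and how long the cells spent in it is not given in the sources used here. The question was how transcripts differ with the backbone medium. Libraries held 23232324 to 31035389 gene counts. Cardiomyocyte markers were abundant in all 6, with summed levels of 32371 to 40286 CPM (counts scaled to a library of 1000000, with TMM normalisation) in RPMI plus B27 and 26426 to 36464 CPM in DMEM plus fatty acids, and TNNT2, the cardiac troponin T gene, was among them.

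Intermediate filaments are ropes of coiled-coil proteins that give a cell its resistance to stretch. Keratins assemble only as pairs of an acidic type I chain (KRT18, KRT19) with a basic type II chain (KRT7, KRT8, KRT80), and KRT8 with KRT18 is the first pair made in the embryo and remains in simple epithelia. Vimentin is the filament of mesenchymal cells, desmin that of muscle, where it ties Z-discs to each other and to the cell surface, synemin and nestin co-assemble with them, and lamins A and C line the inside of the nucleus. In developing heart cells keratins 8 and 18 are also made, and mesothelial cells of the epicardium carry keratins together with vimentin.

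The genes are close relatives, and how well reads tell them apart bears on every value below. KRT80 (chr12:52168996-52192000, minus strand), KRT7 (chr12:52233114-52248921, plus strand), KRT8 (chr12:52897187-52949874, minus strand) and KRT18 (chr12:52948871-52952901, plus strand) lie in the keratin cluster of chromosome 12 on GRCh38, and the annotated spans of KRT8 and KRT18 overlap at their ends. KRT19 lies at chr17:41523617-41528308 (minus strand). The most similar stretches of coding sequence are shown for 2 pairs of relatives, to let a reader see how alike they are, from GENCODE release 29 transcripts on GRCh38, each 90 bases long, 5′ to 3′, with identical bases in capitals.
KRT18: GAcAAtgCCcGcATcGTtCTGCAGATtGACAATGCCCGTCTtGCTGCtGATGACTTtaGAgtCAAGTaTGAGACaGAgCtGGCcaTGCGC
KRT19: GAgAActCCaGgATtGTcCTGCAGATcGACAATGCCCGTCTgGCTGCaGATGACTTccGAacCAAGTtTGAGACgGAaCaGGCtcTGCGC
VIM: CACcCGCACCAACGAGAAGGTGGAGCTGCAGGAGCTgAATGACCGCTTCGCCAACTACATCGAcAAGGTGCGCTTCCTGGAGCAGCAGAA
DES: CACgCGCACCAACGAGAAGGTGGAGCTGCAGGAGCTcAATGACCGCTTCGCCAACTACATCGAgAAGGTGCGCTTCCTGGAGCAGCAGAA
Counted from the A of the start codon, the stretches of KRT18 (bases 436 to 525 of the coding sequence) and KRT19 (439 to 528) share 70 of 90 bases. Those of VIM (294 to 383) and DES (309 to 398) share 87. Over the whole coding sequences, aligned without gaps at any offset, the longest run of identical bases was 17 between KRT18 and KRT19. Between VIM and DES it was 32. Over the whole transcripts, no 50-base stretch was common to KRT7 and KRT8 or to VIM and DES. KRT80 did share some with KRT8. Of its 50-base stretches, 0.42% also occur in KRT8 or a KRT8 pseudogene, and 0.0% of its 100-base stretches occur in another gene.

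Copies elsewhere in the genome share sequence with KRT8 and KRT18. Of all 50-base stretches of the KRT8 transcript, 37.1% also occur in a transcript of another gene on either strand, and 33 of these other genes carry KRT8 pseudogene names. For KRT18 the share was 47.6%, with 43 named KRT18 pseudogenes. At 100 bases the shares fell to 6.73% for KRT8 and 16.6% for KRT18, the latter all in overlapping KRT8 transcripts. KRT7 had 10.8% at 50 bases and 7.67% at 100 bases, where the only other gene was the antisense KRT7-AS. KRT19 had 1.79% at 50 bases, and NES and LMNA had 0.0% at either length. VIM had 33.7% at 100 bases, within VIM-AS1 and another antisense gene at the locus. SYNM had 27.5% at 50 bases and 25.7% at 100 bases, within 2 other genes. Reads that fit several places or genes were set aside by the counting. The levels of genes with such sharing, among them KRT8, KRT18, VIM and SYNM, may therefore be understated. The 2 pseudogene rows KRT8P41 and KRT18P55 held at most 4 counts in a library.

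KRT7 transcripts were present in every RPMI plus B27 library and nearly gone from every DMEM plus fatty acids library. KRT7 is the type II keratin of simple and glandular epithelia and of mesothelium. Its level was 27.3, 10.1 and 13.4 CPM in RPMI plus B27 replicates 1 to 3 (724, 237 and 359 counts) and 0.215, 0.268 and 0.593 CPM in DMEM plus fatty acids (5, 8 and 20 counts). The media did not overlap, and replicate 1 was the highest of RPMI plus B27 and the lowest of DMEM plus fatty acids. The fitted log2 fold change was -5.50 ± 0.55 (SE, the DMEM medium relative to the RPMI medium, as for every fold change here), a 45.2-fold lower level. It ranged from -6.08 to -4.97 when each library was left out in turn. KRT7-AS, which lies within KRT7 on the other strand, held 16, 1 and 3 counts in RPMI plus B27 and 0 in each DMEM plus fatty acids library. Whether counting used the strand is not given in the sources used here, so reads of this pair cannot be told apart. In these bulk libraries, fewer cells of a type and less RNA per cell cannot be told apart either.

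**Figure D1:**
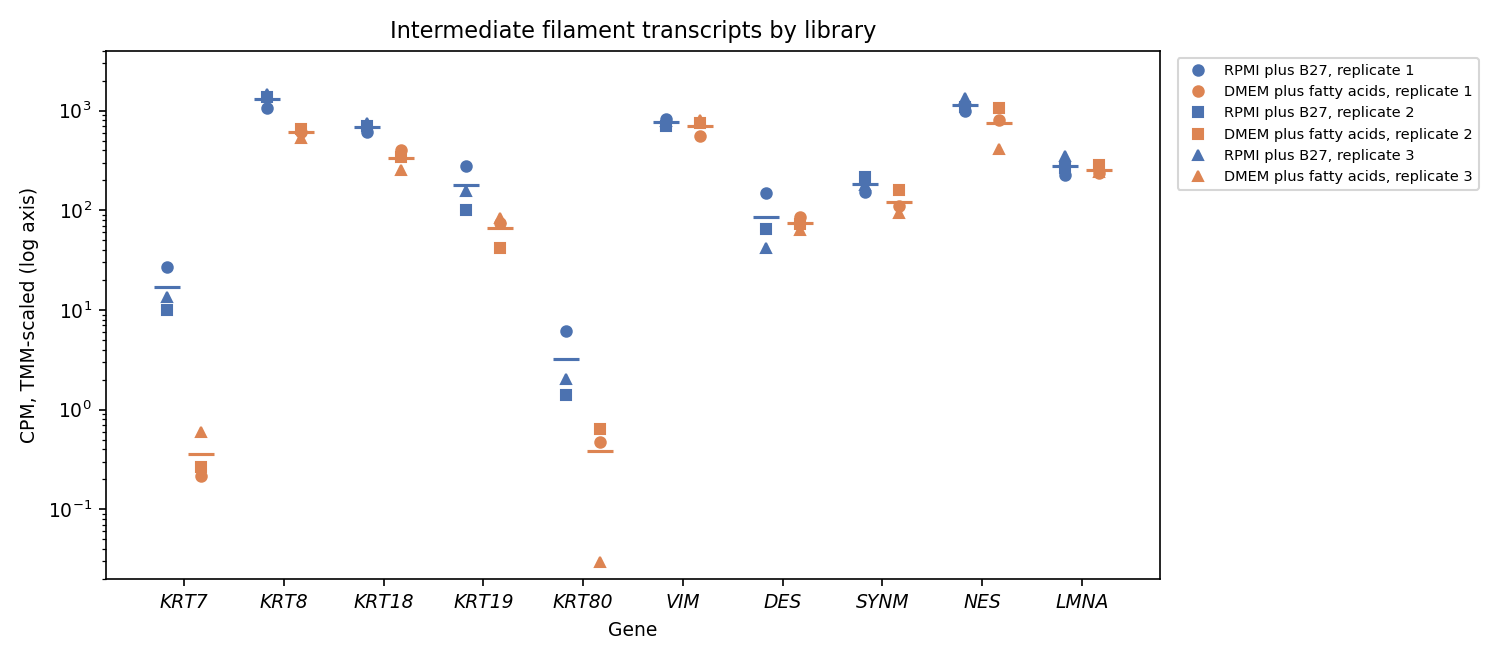
TMM-scaled CPM on a log axis for the 10 genes, a point per library (symbols give the replicate number) and a bar at the mean of 3 libraries. The media separate for the 5 keratins and overlap for VIM, DES, SYNM, NES and LMNA.

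KRT8 fell in DMEM plus fatty acids, and its partner KRT18 had a difference of like size that missed the threshold in edgeR without the block. KRT8 was at 1065, 1358 and 1480 CPM in RPMI plus B27 and at 617.3, 661.7 and 538.4 CPM in DMEM plus fatty acids. The media did not overlap, and the mean went from 1301 ± 213.1 to 605.8 ± 62.4 CPM (SD, n = 3 each). The log2 fold change was -1.10 ± 0.17 (adjusted p = 0.0402, edgeR quasi-likelihood test with Benjamini-Hochberg adjustment over 16107 genes). KRT18 was at 615.8, 699.5 and 751.6 CPM in RPMI plus B27 and at 404.1, 346.5 and 256.7 CPM in DMEM plus fatty acids, again without overlap. Its log2 fold change of -1.04 ± 0.19 had an adjusted p of 0.0540 in edgeR, and 0.0418 when replicate number entered as a block. It also passed in DESeq2 (adjusted p = 9.71e-05) and in edgeR without a filter on low counts (0.0160). Replicate 3 had the highest KRT8 and KRT18 levels of RPMI plus B27 and the lowest of DMEM plus fatty acids. KRT8 was no longer called without any 1 of the 6 libraries, with edgeR adjusted p values of 0.0543 to 0.123 and log2 fold changes of -1.23 to -0.998.

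The balance between the partners differed between media by less than it did within them. KRT18 made up 36.6%, 34.0% and 33.7% of KRT8 plus KRT18 counts in RPMI plus B27 and 39.6%, 34.4% and 32.3% in DMEM plus fatty acids. The difference of 0.629 percentage points was smaller than the SD of 1.62 and 3.75 points within media (exact two-sided permutation test, p = 0.8, where 3 against 3 libraries cannot give less than 0.1). Counting error was at most 0.622 points per library (95% Wilson half-width), and such intervals cover counting error only. The whole keratin family took 0.191%, 0.214% and 0.233% of gene counts in RPMI plus B27 and 0.112%, 0.111% and 0.0981% in DMEM plus fatty acids, and KRT8 with KRT18 made up 83.5% to 93.9% of it in every library.

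KRT19, the small type I keratin of ductal and mesothelial cells, had lower values in DMEM plus fatty acids and was uneven between replicates. It was at 280.9, 100.2 and 157.3 CPM in RPMI plus B27 and at 74.4, 41.6 and 84.7 CPM in DMEM plus fatty acids. The media did not overlap, although the lowest RPMI plus B27 library and the highest DMEM plus fatty acids library lay close together. Its log2 fold change of -1.42 ± 0.41 did not pass in edgeR (adjusted p = 0.142), and when replicate number entered as a block it was -1.36 ± 0.20 and passed (adjusted p = 0.0255). Without RPMI plus B27 replicate 1, the log2 fold change was -0.95. The share of KRT19 among KRT18 plus KRT19 counts ran from 12.5% to 31.3% in RPMI plus B27 and from 10.7% to 24.8% in DMEM plus fatty acids, and it was highest in replicate 1 of the former and replicate 3 of the latter.

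KRT80, a type II keratin found in many epithelia, was the scarcest of the 10 in RPMI plus B27, while in DMEM plus fatty acids KRT7 had the lower mean. It was at 6.18, 1.404 and 2.01 CPM in RPMI plus B27 (164, 33 and 54 counts) and at 0.474, 0.635 and 0.0296 CPM in DMEM plus fatty acids (11, 19 and 1 counts). The media did not overlap, and the log2 fold change of -3.09 ± 0.90 did not pass in edgeR without the block (adjusted p = 0.148) or with it (adjusted p = 0.0769). It was -2.20 without RPMI plus B27 replicate 1, -2.51 without DMEM plus fatty acids replicate 3 and -3.76 without DMEM plus fatty acids replicate 2. KRT7, KRT19 and KRT80 shared the order of the RPMI plus B27 libraries, with replicate 1 highest and replicate 2 lowest, whereas KRT8 and KRT18 were lowest in replicate 1.

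Apart from these 5, the keratin family was at or near 0 counts, with 1 exception. Of 55 keratin genes listed, 32 had no count in any library, and a further 17 had at most 13 counts in a library and were not tested. KRT20, a keratin of intestinal epithelium, was among those without a count. The exception was KRT10, a type I keratin best known from the upper epidermis, at 16.9, 21.8 and 18.0 CPM in RPMI plus B27 and 24.5, 25.7 and 21.5 CPM in DMEM plus fatty acids. It was the only tested keratin with a positive value (log2 fold change 0.34 ± 0.16, edgeR adjusted p = 0.317), and its media overlapped.

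VIM and DES showed no difference beyond the replicate spread. VIM was at 833.3, 696.7 and 787.0 CPM in RPMI plus B27 and 561.4, 758.0 and 811.0 CPM in DMEM plus fatty acids (log2 fold change -0.12 ± 0.18, edgeR adjusted p = 0.763). DES was at 150.2, 64.5 and 41.8 CPM in RPMI plus B27 and 86.1, 73.4 and 63.8 CPM in DMEM plus fatty acids (-0.20 ± 0.42, edgeR adjusted p = 0.842). The 3 DMEM plus fatty acids values of DES lay inside the RPMI plus B27 range, which replicate 1 stretched. Without that library the log2 fold change of DES was 0.48 (edgeR adjusted p = 0.364). Vimentin made up 84.7%, 91.5% and 94.96% of VIM plus DES counts in RPMI plus B27 and 86.7%, 91.2% and 92.7% in DMEM plus fatty acids. The share followed the replicate number in either medium, lowest in replicate 1 and highest in replicate 3, and the media differed by -0.203 percentage points (exact two-sided permutation test, p = 0.9).

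**Figure D2:**
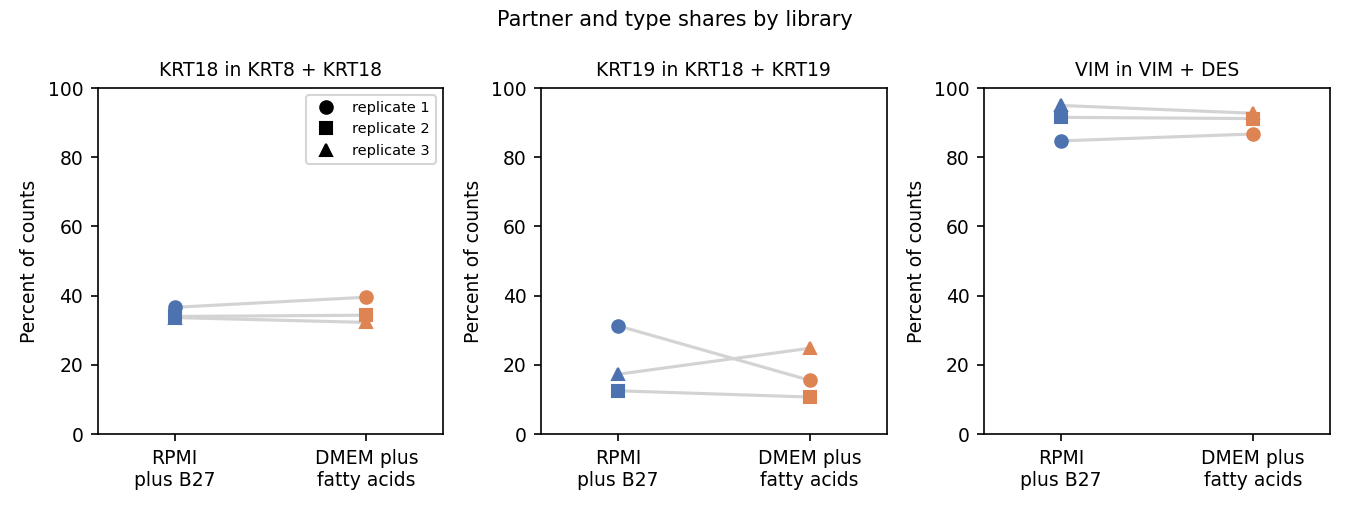
Percent of counts in each library for KRT18 within KRT8 plus KRT18, KRT19 within KRT18 plus KRT19, and VIM within VIM plus DES. Grey lines join libraries with the same replicate number. The first and the last share differ between media by 0.629 and -0.203 percentage points.

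SYNM and NES, the large filament proteins that join vimentin and desmin, were lower on average with overlapping media. SYNM was at 152.6, 217.0 and 179.0 CPM in RPMI plus B27 and 109.3, 158.3 and 94.1 CPM in DMEM plus fatty acids. Its log2 fold change was -0.60 ± 0.22 (edgeR adjusted p = 0.220, and 0.0559 with the block). NES was at 997.5, 1094 and 1329 CPM in RPMI plus B27 and 806.8, 1059 and 416.7 CPM in DMEM plus fatty acids (-0.58 ± 0.32, edgeR adjusted p = 0.393). The NES value rested on the low DMEM plus fatty acids replicate 3, without which it was -0.29. LMNA was level, at 224.4, 265.3 and 354.9 CPM in RPMI plus B27 and 239.4, 284.5 and 244.9 CPM in DMEM plus fatty acids (-0.14 ± 0.19, edgeR adjusted p = 0.747).

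Of the 9 genes other than KRT7, 1 (KRT8) was called without the block and 3 (KRT8, KRT18 and KRT19) with it, all lower. Of all tested genes 1.36% were called without the block (1.07% lower, 0.292% higher) and 4.78% with it (3.42% lower, 1.36% higher). Without the block these were 172 lower and 47 higher, and with scaling by total counts 128 lower and 74 higher. All 9 had a negative fitted value, with a median log2 fold change of -0.60 against 0.01 over all tested genes. The 3 libraries of each medium did not overlap for 4 of the 9, the other keratins, all lower in DMEM plus fatty acids, and that held for 12.8% of all tested genes (25.6% in either direction). The DESeq2 Wald test called 4 of the 9, the 4 keratins, and it called 1212 of all 16107 tested genes. As KRT7 and KRT8 were known beforehand to be lower, the keratins were not chosen blind to these values.

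**Figure D3:**
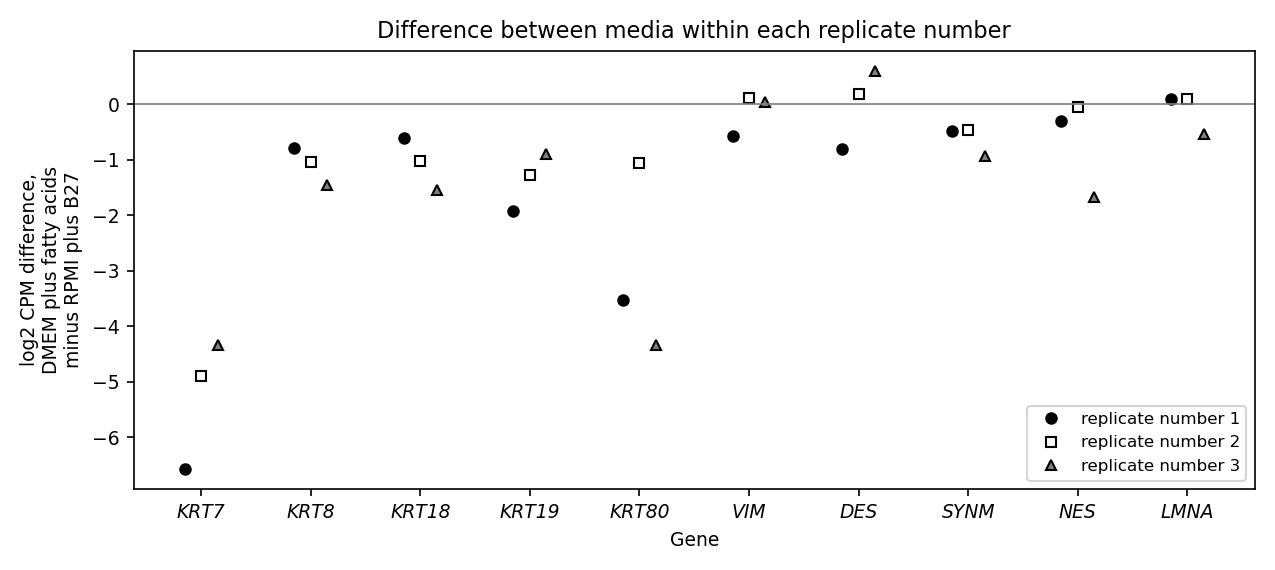
Difference in log2 CPM (prior count 2) between DMEM plus fatty acids and RPMI plus B27 within each replicate number, for the 10 genes. All 3 pairs lie below 0 for the 5 keratins, SYNM and NES (replicate 2 of NES at -0.047), and on either side of 0 for VIM, DES and LMNA. The share of all tested genes with 3 pairs below 0 was not counted.

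The difference between libraries with the same replicate number was negative in all 3 pairs for the 5 keratins, SYNM and NES. The keratins include KRT7, on which the set was selected. The share of all tested genes with such a pattern was not counted, so nothing is concluded from the number of genes. NES had -0.31, -0.047 and -1.67 in replicates 1 to 3, with replicate 2 near 0. KRT8 differed by -0.79, -1.04 and -1.46 and KRT18 by -0.61, -1.01 and -1.55 (log2 CPM, replicates 1 to 3). KRT7 ran the other way, with -6.57, -4.90 and -4.34, and KRT19 with -1.91, -1.27 and -0.89. VIM had -0.57, 0.12 and 0.04, and its sign differed between pairs as did those of DES and LMNA.

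Per kilobase of the principal GENCODE transcript, the levels could be ordered between genes. Reads shared with other genes may be lost to a different extent for each gene, and the order was not corrected for that. In RPMI plus B27 the order was KRT8 (691.2 ± 113.2 CPM per kb, SD, n = 3), KRT18 (441.1 ± 43.9), VIM (413.4 ± 37.2), NES (205.2 ± 30.7), KRT19 (129.1 ± 66.4), LMNA (88.3 ± 20.9), DES (38.0 ± 25.4), SYNM (24.7 ± 4.38), KRT7 (9.64 ± 5.20) and KRT80 (0.829 ± 0.673). Neighbours whose libraries overlapped were KRT18 with VIM, NES with KRT19, KRT19 with LMNA, and DES with SYNM. In DMEM plus fatty acids VIM (380.2 ± 70.4) came first, above KRT8 (321.9 ± 33.2), KRT18 (215.0 ± 47.6) and NES (136.9 ± 58.2), with LMNA (80.3 ± 7.71) and KRT19 (48.1 ± 16.2) next. Overlapping neighbours there were VIM with KRT8, KRT18 with NES, NES with LMNA, and KRT19 with DES (33.1 ± 4.98), and KRT7 (0.204 ± 0.117) overlapped with KRT80 (0.0984 ± 0.0813). The order of KRT8 depends on the length used, since the union of exons over its coding transcripts is 4.58 kb against 1.88 kb for the principal transcript. On that longer length KRT8 was at 284.0 and 132.2 CPM per kb in the 2 media, below KRT18 in both. It was also below NES (136.9) in DMEM plus fatty acids. VIM then came first in both media (413.4 and 380.2), so the change of the first gene between media was seen only with the principal transcript length.

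Other intermediate filament genes had values of either sign. Of 13 such genes outside the keratin family, 11 were tested. Of these edgeR called 0 without the block, with 4 at an unadjusted p under 0.05 and 2 called by DESeq2. Over all 16107 tested genes, 2848 had an unadjusted edgeR p under 0.05 and DESeq2 called 1212. These are the background for such counts in this and the later lists. NEFL, the light neurofilament chain of neurons, was at 1.66, 4.94 and 2.57 CPM in RPMI plus B27 and 12.6, 14.3 and 6.05 CPM in DMEM plus fatty acids. The media did not overlap and its log2 fold change was 1.85 ± 0.48, with an edgeR adjusted p of 0.114, or 0.0434 with the block, the only call of the list in that fit. GFAP, the astrocyte filament, had 1.35 ± 0.56 (edgeR adjusted p = 0.271) and NEFM, the medium neurofilament chain, -0.93 ± 0.40 (0.279). IFFO2, an orphan family member, had -0.99 ± 0.26 (0.115). The B-type lamins had values of opposite sign, with 0.44 ± 0.32 for LMNB1 and -0.41 ± 0.34 for LMNB2 (0.512 and 0.581). The median of the 11 was -0.13.

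**Figure D4:**
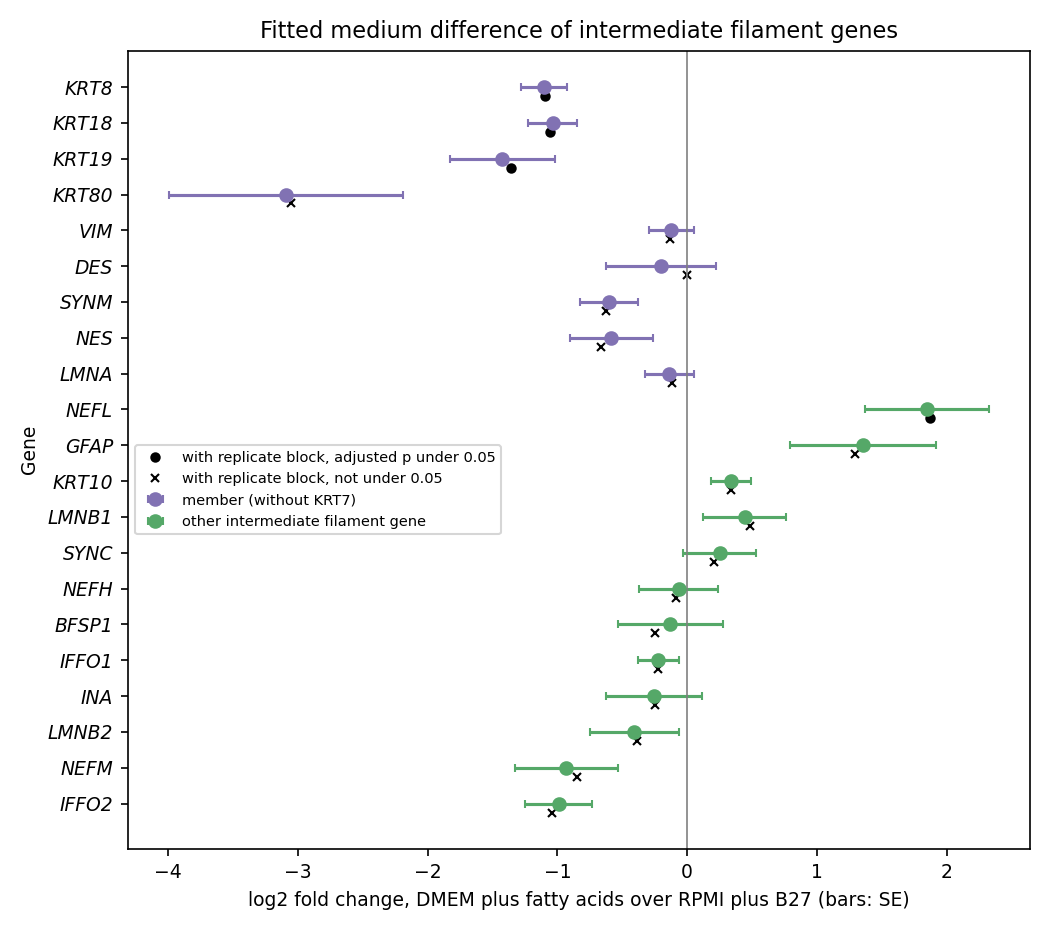
Fitted log2 fold change with its SE for the 9 tested genes of the set (purple) and 12 other intermediate filament genes (green). Black symbols give the blocked fit, as dots where its adjusted p is under 0.05: KRT8, KRT18 and KRT19 to the left and NEFL to the right.

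Among genes for proteins that anchor filaments, EPPK1 fell. EPPK1 encodes epiplakin, a plakin that binds keratin and vimentin filaments. It was at 43.1, 21.7 and 35.3 CPM in RPMI plus B27 and 3.401, 7.89 and 4.59 CPM in DMEM plus fatty acids, without overlap. It fell with a log2 fold change of -2.65 ± 0.38 (edgeR adjusted p = 0.0346), and was no longer called without any 1 of the 6 libraries (0.0601 to 0.0985). PPL (periplakin, a linker of the cornified envelope and of keratins) had -0.84 ± 0.17, with an edgeR adjusted p of 0.0657, or 0.0455 with the block. Of the 16 desmosome and cytolinker genes, 12 were tested, with 1 called lower and 0 higher without the block and 2 lower with it, and their median was -0.17. DSC3 and DSC2, desmosomal cadherins, had -1.15 ± 0.39 and 0.27 ± 0.12 (edgeR adjusted p = 0.189 and 0.300). DSP, JUP and PKP2, the plaque proteins through which desmin reaches the intercalated disc, had values of -0.15 ± 0.23, 0.21 ± 0.16 and -0.14 ± 0.15 (0.774, 0.534 and 0.665) and were picked once the values were known.

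Chaperones and turnover factors of filaments showed no called change. Of 9 tested, edgeR called 0 with or without the block, with 1 at an unadjusted p under 0.05 and 1 called by DESeq2. That gene was HSPB1, a small heat shock protein that binds filaments, with -0.76 ± 0.21 (edgeR adjusted p = 0.127) and media that did not overlap. CRYAB, the desmin chaperone alpha-B crystallin, had -0.06 ± 0.31 (0.938) and was picked once its value was known. The median of these 9 was 0.16, and 6 had positive values. Among those were CAPN1 (0.28 ± 0.13, 0.321, media without overlap), CASP6 (0.54 ± 0.29, 0.384) and TRIM63 (0.34 ± 0.22, 0.467). Of 17 tested genes for lamin processing and its partners at the nuclear envelope, edgeR called 0 without the block, with 2 at an unadjusted p under 0.05 and 2 called by DESeq2. With the block it called 1, NARF, a factor that binds prelamin A (-0.68 ± 0.15, adjusted p = 0.0836, and 0.0311 with the block). SUN2, an inner nuclear membrane protein that links lamins to the cytoskeleton, had -0.63 ± 0.18 (0.150). The median of the list was 0.01.

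Markers of other cell types also differed between the libraries, and their part in the keratin values was not tested. Fibroblast markers were summed at 4229 to 7973 CPM in RPMI plus B27 and 741.2 to 1925 CPM in DMEM plus fatty acids, and 4 of 9 tested were called lower (6 with the block), among them COL1A1 and DCN. Leaving out 1 library at a time, COL1A1 passed in 2 of 6 fits and DCN in 1. Like KRT7, KRT19 and KRT80, COL1A1 and DCN were highest in RPMI plus B27 replicate 1. So were the summed fibroblast, smooth muscle and cardiomyocyte markers. Smooth muscle markers were summed at 1995 to 2375 CPM and 622.9 to 1404 CPM, with 1 of 7 called, LMOD1 (in 0 of 6 fits without 1 library), and 2 with the block. Mesothelial and epicardial markers other than keratins were summed at 141.2 to 333.0 CPM and 135.8 to 179.4 CPM. Most of each sum was LRRN4 (-0.63 ± 0.39, edgeR adjusted p = 0.449). Of the 9 tested, 7 had negative values and 2 positive ones, PDPN (0.18 ± 0.18, 0.654) and UPK1B (0.34 ± 0.46, 0.738). LRRN4, PDPN and UPK1B were picked once their values were known. In edgeR 0 of 9 were called (3 at an unadjusted p under 0.05, 1 by DESeq2). With the block 2 were called lower, TBX18 and CALB2, the calretinin gene (adjusted p = 0.0319). The epicardial factor TBX18 had -2.18 ± 0.42, with an edgeR adjusted p of 0.0605 and 0.0271 with the block, and the defining gene WT1 was too low to test, with 23, 8 and 13 counts against 2, 2 and 5.

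Of the epithelial markers, none was called in edgeR. They were summed at 204.7 to 457.9 CPM in RPMI plus B27 and 210.5 to 366.2 CPM in DMEM plus fatty acids, and edgeR called 0 of 8 with or without the block (2 at an unadjusted p under 0.05, 0 by DESeq2). CDH3, the P-cadherin gene, made up most of each sum, with means of 290.0 and 285.1 CPM, and was picked once its values were known. Of the 8 tested, 7 had negative values, among them CLDN3, a tight junction claudin (-1.28 ± 0.40, edgeR adjusted p = 0.166), and ELF3, an epithelial transcription factor (-0.96 ± 0.38, 0.249). EPCAM, an adhesion protein of simple epithelia, was at 7.23, 6.81 and 17.9 CPM and at 8.74, 9.73 and 16.0 CPM. CDH1, the gene of E-cadherin, was highest in replicate 3 of either medium (14.8 and 5.84 CPM, with at most 1.53 CPM in the other 4 libraries). Hepatic and foregut endoderm markers were highest in replicate 3 of either medium, with 315.8 CPM in the RPMI medium and 51.2 CPM in the DMEM medium. The other 4 libraries held 7.84 to 56.4 CPM of them. All 7 tested had negative values, and edgeR called 0 without the block (1 at an unadjusted p under 0.05, 0 by DESeq2). With the block it called 2, AFP (alpha-fetoprotein, adjusted p = 0.0255) and SERPINA1 (alpha-1 antitrypsin, 0.00613). In replicate 1 SERPINA1 had 0 counts in either medium. AFP had 0 counts there in the RPMI medium and 2 in the DMEM medium, so that pair went the other way. KRT8 and KRT18 were highest in replicate 3 of the RPMI medium but lowest in replicate 3 of the DMEM medium (538.4 and 256.7 CPM). With the former library left out, the fit gave -0.998 for KRT8 and -0.97 for KRT18 (log2). Endothelial markers were summed at 38.9 to 241.6 CPM and 115.8 to 464.1 CPM. Most of each sum was KDR, a VEGF receptor (1.26 ± 0.76, edgeR adjusted p = 0.434, and 0.0245 with the block). Its part was least in RPMI plus B27 replicate 1, at 27.5 of 38.9 CPM. The other 3 tested had negative values, among them EMCN, the endomucin gene (-4.23 ± 1.012, 0.0960, and 0.0237 with the block). In edgeR 0 of 4 were called without the block (2 at an unadjusted p under 0.05, 2 by DESeq2). The remaining lists were low, with neural markers at 13.2 to 19.4 and 10.8 to 18.7 CPM, and pluripotency markers at 16.8 to 58.1 and 24.7 to 62.1 CPM. Of 13 cardiomyocyte markers, edgeR called 0 without the block (3 at an unadjusted p under 0.05, 3 by DESeq2) and 2 lower with it. These were MYH7, the slow beta myosin heavy chain (-1.27 ± 0.39, adjusted p = 0.163, and 0.0359 with the block), and ACTN2, the Z-disc actinin (-0.9996 ± 0.30, 0.155, and 0.0494 with the block). MYH6, the alpha myosin heavy chain, had 0.86 ± 0.27 (edgeR adjusted p = 0.166, and 0.0797 with the block).

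**Figure D5:**
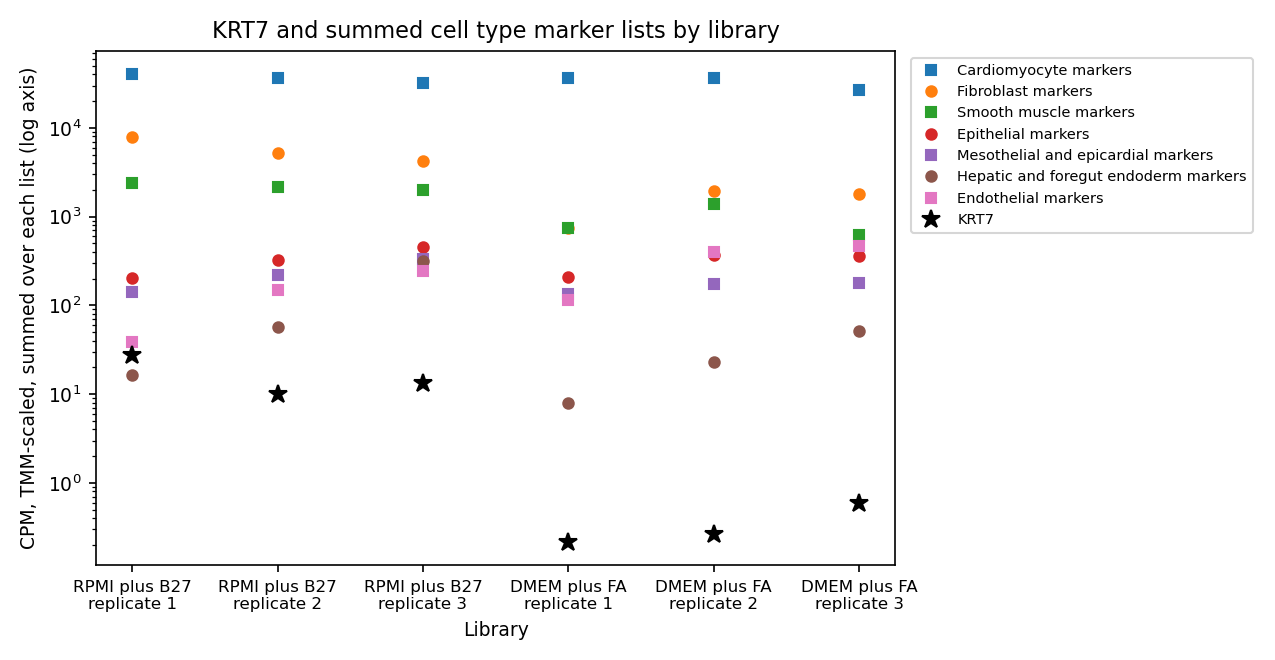
KRT7 (stars, 1 gene) and the summed TMM-scaled CPM of 7 lists of cell type markers in each library, on a log axis. KRT7 and the fibroblast, smooth muscle and cardiomyocyte markers are highest in RPMI plus B27 replicate 1. In DMEM plus fatty acids replicate 1 the fibroblast symbol lies behind that of smooth muscle. Endoderm, epithelial and mesothelial markers are highest in RPMI plus B27 replicate 3. Cardiomyocyte markers sum to between 26426 and 40286 CPM.

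The genes whose profile over the 6 libraries was nearest to that of KRT7 were not filament genes. By the root mean square difference of mean-centred log2 CPM they were MGP (matrix Gla protein, 0.343), TNC (tenascin C, a matrix glycoprotein, 0.516), CPA4 (carboxypeptidase A4, 0.562), TM4SF1 (a tetraspanin-like membrane protein, 0.572) and TXNIP (thioredoxin-interacting protein, 0.585). MGP went from 12.2, 3.19 and 3.92 CPM in RPMI plus B27 to 0, 0 and 3 counts in DMEM plus fatty acids. Within the set of 10, the nearest was KRT80 (1.69), which ranked 179 among the other tested genes. It was followed by KRT19 (1.99, rank 403), KRT8 (2.20, rank 813) and KRT18 (2.23, rank 896). IFFO2, a filament gene outside the set, lay at 2.19, nearer than KRT8.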

How the data were processed

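Messenger RNA libraries from a stranded kit were sequenced for 6 cultures. The values are raw read counts for each gene symbol, deposited as the authors made them with STAR and HTSeq on hg38, per the submitters' processing notes; versions, annotation and strand setting are not given in the sources used here. The 5 summary rows were kept out of library sizes; gene rows held 84.4% to 87.2% of each file and reads fitting several places 3.05% to 4.10%. The test was that of edgeR 4.0.16 (R 4.3.3), with settings (filterByExpr minimum count 10, minimum total 15; TMM; quasi-likelihood test; Benjamini-Hochberg threshold 0.05; 4 residual degrees of freedom). SEs are those implied by the F statistic. Alternatives were RLE size factors, total counts, DESeq2 1.42.0, other filters, each library left out, and the replicate number as a block. Deviations from the medium means correlated between same-numbered libraries at 0.31, 0.43 and 0.37 (other pairs -0.24 to -0.14), so the numbers were taken to pair the libraries. The labels call the replicates biological, with no word on separate differentiations. A 0 allows up to 3 counts (0.0889 to 0.129 CPM).

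The set, the lists and the tests were chosen with earlier results of these data known. Genes named were the 10 of the set, up to 4 of each other list with the smallest p, defining markers and the 5 profiles nearest KRT7; KRT10, KRT20, the B-type lamins, antisense and pseudogene rows and those so marked were picked once values were known. Every pair of libraries differed by more than counting noise (chi-square per degree of freedom 31.6 or higher). A sequence comparison of a further pair is not reported here.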

Additional observations from a re-analysis of the deposited data

How the results depend on the processing

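Over all genes, 219 were called by edgeR without the block, 1212 by DESeq2, 539 without a low count filter, 119 when each library had to hold 10 counts, and 770 under the replicate block; leaving out 1 library gave 3 to 131. Of the 9 genes other than KRT7, 1 was called, against 4 by DESeq2, 2 without a filter, 3 with the replicate block, and 0 to 0 in each fit without 1 library. Total count scaling moved the median of all genes to 0.12 (log2) from 0.01, and the keratins kept their sign. With 1 library left out, the log2 fold change ran over both signs for VIM (-0.22 to 0.019, positive without DMEM plus fatty acids replicate 1), DES (-0.53 to 0.48, positive without RPMI plus B27 replicate 1), LMNA (-0.28 to 0.068, positive without RPMI plus B27 replicate 3), CDH1 (-4.60 to 1.17, positive without RPMI plus B27 replicate 3) and EPCAM (-0.20 to 0.71, with -0.11, -0.13 and -0.20 without RPMI plus B27 replicates 1 and 2 and DMEM plus fatty acids replicate 3). The KRT18 share differed by -1.45 to 2.19 percentage points and the VIM share by -3.04 to 2.07, their signs turning without DMEM plus fatty acids replicate 1 for the former (-1.45) and, for the latter, without RPMI plus B27 replicate 2 (0.357), RPMI plus B27 replicate 3 (2.07) or DMEM plus fatty acids replicate 1 (1.54). Within pairs (replicate block), these shares differed by 0.629 and -0.203 points with an exact sign-flip p of 0.75 each, where 3 pairs cannot give less than 0.25. The block changed the call of KRT18, KRT19, NEFL, PPL, NARF, TBX18, CALB2, AFP, SERPINA1, KDR, EMCN, MYH7 and ACTN2 among genes named above, as printed there. The exon-union length for levels per kb was an alternative chosen after seeing the data.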
